A study of Oryza sativa with 6 samples.

Results

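The chitinases of rice leaves were followed through a drought experiment in 2 genotypes, Apo and IR64. The family was taken as the genes with a synonym of the form Cht or chia followed by its number or letter, with or without the prefix Os. The gene table held 12 such genes, and 10 of them had a probe annotated to that gene alone, 1 probe each. They were 10 of 15702 genes with a tested probe of their own, and 17727 probes were tested in all. Cht9 and Cht12 had no such probe and were not analysed here. The submitters describe Apo as tolerant of drought and IR64 as susceptible. Plants stood in a greenhouse, and stressed plants received no water from day 33 after sowing. Stressed leaves were taken 5 days later by the sample labels and 6 days later by the series text, and leaves of watered plants on day 37. Each genotype had 3 arrays, and each array set the Cy5-labelled RNA of watered leaves against the Cy3-labelled RNA of stressed leaves. The labels do not say whether replicates were separate plants or pools, so p-values cover the spread between these arrays and no more, and that spread may be technical.

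Chitinases cut chitin, the polymer of fungal cell walls, which plants do not make. Most of those with these names belong to glycoside hydrolase family 19 and are counted among the pathogenesis-related proteins. Class I enzymes carry a chitin-binding domain before the catalytic domain, class II enzymes lack it, and class IV enzymes have a shorter catalytic domain. Fragments released from fungal walls are sensed by LysM proteins at the cell surface, CERK1 among them, and set off defence signalling. Plant chitinases are also known to respond to wounding, hormones and abiotic stress.

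Every value below is a deposited log ratio of the RNAs on 1 array, taken as log10, and means are given ± SD over 3 arrays. Which RNA is the numerator is not given in the labels or files, so ratios are called positive or negative. The software usually writes red over green, which with these labels would put watered leaves on top. The 5 probes of dehydrins, proteins that protect cells during water loss and are known to accumulate in drought, were positive in both genotypes, among them RAB16C at 1.72 ± 0.107 in Apo and 1.43 ± 0.210 in IR64. The others with the smallest p-values were rab25, at 1.15 ± 0.0757 and 0.851 ± 0.174, and Dhn1, at 0.935 ± 0.191 and 0.685 ± 0.0280. Photosystem proteins had 8 negative and no positive calls of 9 probes in Apo and 6 and none in IR64, where 25.6% and 20.2% of all tested probes were called negative. The negative calls numbered 6 and 4 with IR64 replicate 1 left out, where 29.1% and 21.8% of all tested probes were called negative. RCABP69 stood at -1.08 in Apo and -0.795 in IR64, CAB2R at -1.12 and -1.22, and the OEE3 probe with the smallest p at -0.626 and -0.366. No dehydrin or photosystem probe passed for the Apo minus IR64 difference, where only 2.02% of all tested probes passed. Those with the smallest p were rab25 (limma adjusted p = 0.117) and PSAH (0.0901). With IR64 replicate 1 left out, when 33.6% of all tested probes passed, 2 of 5 dehydrins did, RAB16B at -0.581 (limma adjusted p = 0.00667) and rab25 at 0.397 (0.00805). Of the photosystem probes 4 of 9 then passed, all negative, PSAH among them at -0.273 (limma adjusted p = 0.00633). Ratios give no expression level, so leaf identity could not be checked against markers, and fewer cells of a type and less RNA per cell cannot be told apart.

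The IR64 replicate 1 array stood apart from its group. Over all tested probes its correlation was 0.832 to 0.894 with Apo arrays but 0.755 and 0.767 with the other IR64 arrays, which correlated at 0.938 with each other. For 7 of the 10 chitinases its value lay nearer to the Apo mean than to the mean of IR64 replicates 2 and 3, against 62.3% of all tested probes. The chitinase results on IR64 and on the difference, and the counts of calls in other gene lists, are therefore given with and without it. The labels and values give no slide or scan date, so no batch could be tested. Same-numbered Apo and IR64 arrays deviated partly alike from their genotype means, with correlations of 0.322, 0.261 and 0.340 across probes. The main fit leaves this out, and a block for the replicate number takes it in.

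Cht1 (LOC4342115, also OsChia1a and RC24), a class I chitinase by name, had the highest ratio of the family in both genotypes. It read 1.24, 0.947 and 0.959 on Apo replicates 1, 2 and 3 and 1.07, 0.636 and 0.705 on the IR64 replicates. All 6 arrays were clearly positive, and the genotypes overlapped only through IR64 replicate 1. Its mean was 1.05 ± 0.167 in Apo (limma adjusted p = 0.000258) and 0.805 ± 0.235 in IR64 (limma adjusted p = 0.000988), or ratios of 11.2 and 6.38 if the base is 10. In Apo 99.0% of the tested probes lay below it, and in IR64 98.9%. Leaving out IR64 replicate 1 gave an IR64 mean of 0.671 (limma adjusted p = 0.00248).

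The other class I genes stood much nearer to 0. Cht2 (LOC4338718, OsChia1b, RC7) read 0.279, 0.162 and 0.189 in Apo and 0.0994, 0.0805 and -0.135 in IR64. Every Apo array was above every IR64 array, and only Apo had 1 sign throughout. Its Apo mean of 0.210 ± 0.0613 passed the threshold (limma adjusted p = 0.0163), but not without Apo replicate 1 (0.0934) or Apo replicate 3 (0.0600). The IR64 mean, 0.0149 ± 0.130, did not pass (limma adjusted p = 0.845). Without IR64 replicate 1 that mean was -0.0273 and did not pass either (limma adjusted p = 0.740).

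Cht3 (LOC4342114, OsChia1c) read -0.0516, 0 and 0.136 in Apo and 0.102, -0.0941 and 0.0287 in IR64. Its values had mixed signs in both genotypes and passed in neither (limma adjusted p = 0.675 and 0.872). The IR64 mean was 0.0122, and -0.0327 without IR64 replicate 1 (limma adjusted p = 0.666). Cht7 (LOC4338720, OsChia1d) read -0.530, 0 and -0.0382 in Apo and -0.149, 0 and 0 in IR64. It was listed at exactly 0 on 3 of the 6 arrays and rested on Apo replicate 1 for its mean of -0.189 ± 0.295, which did not pass (limma adjusted p = 0.168). Over the annotated spots 3.41% of the values were exactly 0, and what the software meant by a 0 is not given in the sources used here.

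The next genes are named for classes II and IV. The gene chia4a (LOC4336265, also Cht5), class IV by name, had the most negative ratio of the family in IR64. It read -0.0469, -0.139 and -0.207 in Apo and -0.541, -0.872 and -0.794 in IR64. All 6 arrays were negative, and every IR64 array, replicate 1 included, lay below every Apo array. The IR64 mean of -0.735 ± 0.173 passed (limma adjusted p = 0.000324), an inverse ratio of 5.44 if the base is 10, and only 1.25% of tested probes lay below it. Without IR64 replicate 1 the mean was -0.833 (limma adjusted p = 0.000320). The Apo mean of -0.131 ± 0.0804 did not pass (limma adjusted p = 0.146), but did when IR64 replicate 1 was left out of the shared fit (0.0324).

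Cht4 (LOC4336263, OsChia2b) had opposite mean signs in the genotypes. It read 0.112, 0.236 and 0.149 in Apo and 0.0592, -0.323 and -0.298 in IR64. All Apo arrays were positive and above all IR64 arrays, and within IR64 replicate 1 was the only positive one. Neither the Apo mean of 0.166 ± 0.0636 (limma adjusted p = 0.115) nor the IR64 mean of -0.187 ± 0.214 (limma adjusted p = 0.0910) passed. When IR64 replicate 1 was left out both did, at 0.166 (limma adjusted p = 0.00682) and -0.310 (limma adjusted p = 0.00247).

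Cht8 (LOC4349267, OsChia2a) read 0.130, 0.635 and -0.0121 in Apo and -0.00752, 0.200 and -0.0326 in IR64. In both genotypes replicate 2 was the highest and the others were close to 0. Its means of 0.251 ± 0.340 and 0.0535 ± 0.128 did not pass (limma adjusted p = 0.126 and 0.748). With a block for the replicate number the Apo mean passed (limma adjusted p = 0.0327).

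Cht10, Cht11 and Cht6 have names that give no class. Cht10 (LOC4325148) was positive on every array, at 0.249, 0.491 and 0.419 in Apo and 0.0713, 0.594 and 0.532 in IR64. Replicate 1 was the lowest in each genotype, and the genotypes overlapped. Its means of 0.386 ± 0.124 in Apo (limma adjusted p = 0.0201) and 0.399 ± 0.285 in IR64 (limma adjusted p = 0.0212) passed, or ratios of 2.43 and 2.51 if the base is 10. The Apo call was lost without Apo replicate 2 (limma adjusted p = 0.1002) or 3 (0.0847), and the IR64 call without IR64 replicate 2 (0.119) or 3 (0.112) or in a fit of the IR64 arrays alone (0.0822). Without IR64 replicate 1 the IR64 mean was 0.563 (limma adjusted p = 0.00195).

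Cht11 (LOC4331519) was negative on every array, at -0.253, -0.0795 and -0.0492 in Apo and -0.0365, -0.576 and -0.513 in IR64. IR64 replicates 2 and 3 lay below every Apo array, and IR64 replicate 1 above every one. The IR64 mean of -0.375 ± 0.295 passed (limma adjusted p = 0.0274) and the Apo mean of -0.127 ± 0.110 did not (limma adjusted p = 0.347). The IR64 call was lost without IR64 replicate 2 (limma adjusted p = 0.147) or 3 (0.137), in a fit of the IR64 arrays alone (0.0985) and under a block for the replicate number (0.0587). Without IR64 replicate 1 the mean was -0.544 (limma adjusted p = 0.00161).

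Cht6 (LOC4329920) read 0.0227, 0.373 and 0.0804 in Apo and 0.0802, 0.304 and -0.0105 in IR64. Replicate 2 was the highest in each genotype and the groups overlapped. Its means of 0.159 ± 0.188 and 0.125 ± 0.162 did not pass (limma adjusted p = 0.160 and 0.271), and both did under that block (0.0173 and 0.0379).

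**Figure D1:**
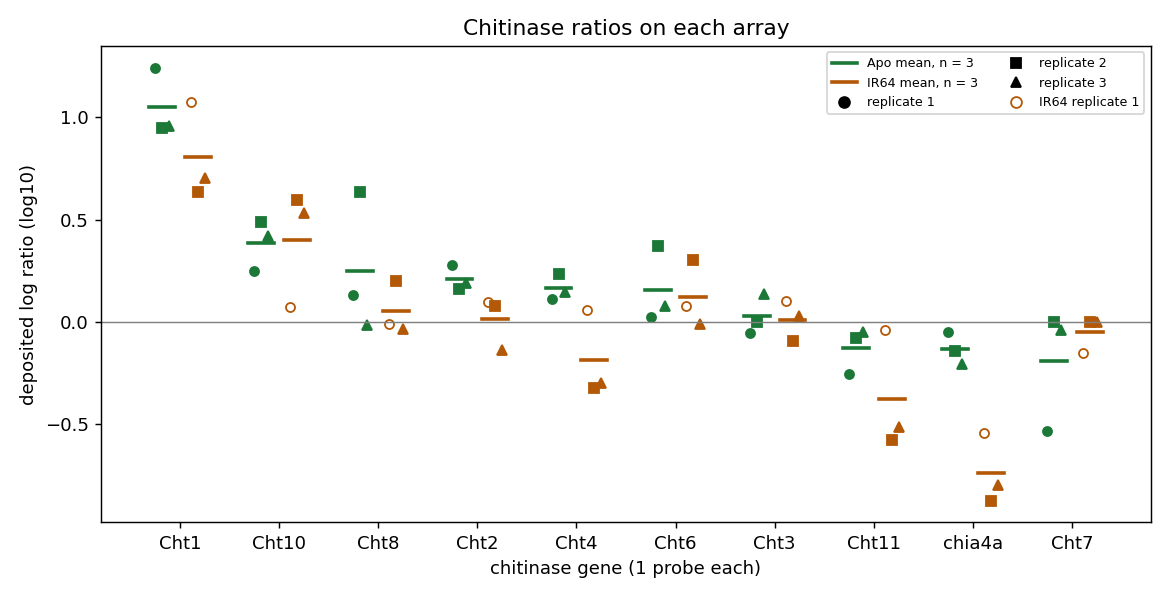
Deposited log10 ratio (vertical axis) of the 10 chitinase probes on each of 6 arrays, with Apo in green, IR64 in orange, a bar at each mean of 3 arrays and IR64 replicate 1 as an open circle. Cht1 is the highest in both genotypes, and chia4a is the lowest in IR64, with all its IR64 arrays below its Apo arrays.

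In Apo 3 of the 10 chitinases passed the threshold, Cht1, Cht2 and Cht10, all positive, where 50.1% of all tested probes passed, 24.5% positive and 25.6% negative. In IR64 4 passed, Cht1 and Cht10 positive and chia4a and Cht11 negative, against 43.0% of all tested probes, 22.7% positive and 20.2% negative. The family was not called more often than all tested probes. The median ratio of the 10 was 0.162 in Apo and 0.0135 in IR64, and that of all tested probes -0.00318 and 0. The mean over the 10 probes ran from 0.115 to 0.263 on the Apo arrays and from -0.0518 to 0.0752 on the IR64 arrays.

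Under the block 5 chitinases passed in Apo, all positive, against 55.3% of tested probes, 26.6% positive and 28.7% negative. In IR64 3 positive and 1 negative passed under the block, against 48.7%, 25.5% positive and 23.1% negative. When IR64 replicate 1 was left out, 4 positive and 1 negative chitinase passed in Apo, against 57.4% of tested probes, 28.4% positive and 29.1% negative. In IR64 2 positive and 3 negative then passed, against 47.7%, 25.9% positive and 21.8% negative. Without Apo replicate 3 only Cht1 passed in Apo, where 37.5% of tested probes passed. Without IR64 replicate 2 or 3 only Cht1 and chia4a passed in IR64, where 28.6% and 29.7% of tested probes passed.

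**Figure D2:**
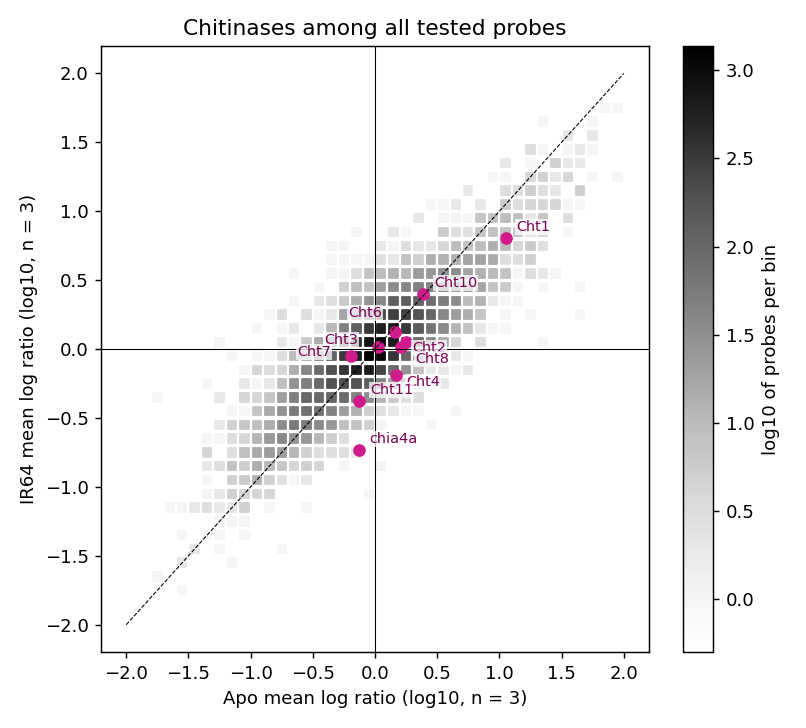
Mean log10 ratio of 3 Apo arrays (horizontal axis) against that of 3 IR64 arrays (vertical axis), with chitinases in magenta over all 17727 tested probes in bins shaded by their number on a log scale. Cht1 sits far to the upper right, most chitinases lie near the centre, and chia4a lies below the dashed line of equal ratios.

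The difference between the genotypes, from which any dye effect shared by the arrays drops out, passed the threshold for chia4a alone. Its Apo minus IR64 difference was 0.604 with a 95% interval of 0.379 to 0.830 (limma adjusted p = 0.0391), and 2.02% of all tested probes passed, 0.773% with Apo higher. The call was lost when any array other than IR64 replicate 1 was left out. The adjusted p was then 0.143, 0.139 and 0.119 without Apo replicates 1, 2 and 3, and 0.161 and 0.189 without IR64 replicates 2 and 3. The size of the difference stayed between 0.536 and 0.702 in all 14 alternatives. Leaving out IR64 replicate 1 gave 0.702 (limma adjusted p = 0.00363). Under the block chia4a was again the only call (limma adjusted p = 0.0366), where 5.36% of tested probes passed, 1.75% with Apo higher and 3.61% with Apo lower.

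Cht4 followed with a difference of 0.353 and a 95% interval of 0.0947 to 0.611 (limma adjusted p = 0.112). Those of Cht11, Cht1, Cht8 and Cht2 lay between 0.195 and 0.248, and none passed (limma adjusted p = 0.161 to 0.464). With IR64 replicate 1 left out, Cht4 (0.476, limma adjusted p = 0.00474), Cht11 (0.417, 0.0138) and Cht1 (0.379, 0.0438) passed together with chia4a. By that fit 33.6% of all tested probes passed, 13.9% with Apo higher and 19.7% with Apo lower, so a call sets a probe little apart there.

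For Cht6, Cht3 and Cht10 the difference was near 0. Their 95% intervals ran from -0.250 to 0.318, from -0.159 to 0.191 and from -0.363 to 0.337, which leaves room for a difference of either sign. Without IR64 replicate 1 the difference of Cht10 was -0.177 (limma adjusted p = 0.149), with an interval of -0.381 to 0.0273. Cht7 had the most negative difference, -0.140 with an interval of -0.486 to 0.206, and -0.189 without IR64 replicate 1. Apo had the higher mean for 8 of the 10 chitinases and for 47.8% of all tested probes. Arrays of the genotypes did not overlap for Cht2, Cht4 and chia4a, with Apo above in each, against 34.5% of all tested probes, 15.3% with Apo above and 19.1% with Apo below.

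**Figure D3:**
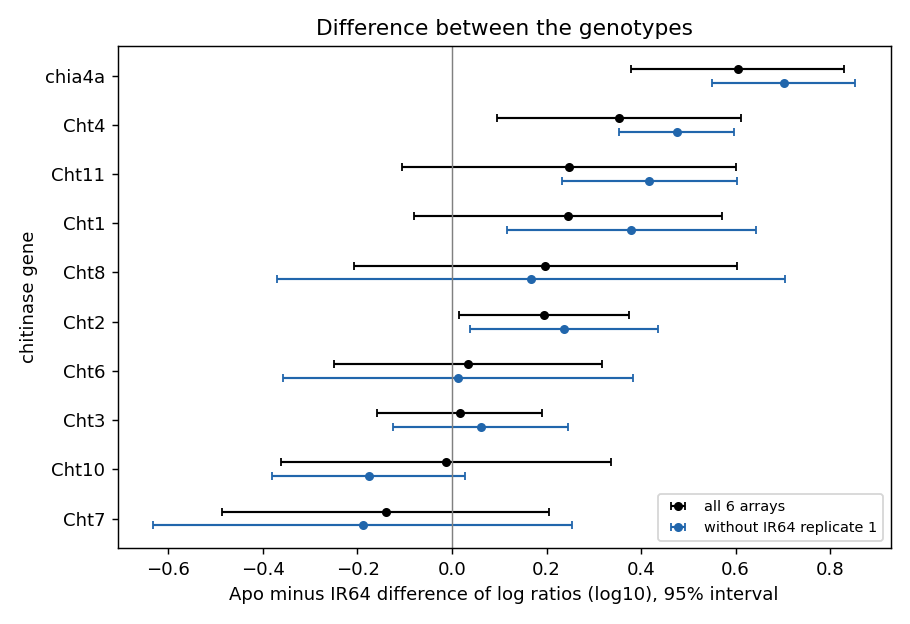
Apo minus IR64 difference of mean log10 ratios (horizontal axis) for each chitinase, with limma's 95% interval, over all 6 arrays in black and without IR64 replicate 1 in blue. The interval of chia4a, 0.379 to 0.830, is the farthest from 0, and those of Cht11 and Cht1 leave 0 behind only in blue.

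Several of these genes are neighbours in the gene table, and Cht1 and Cht3 among them had unlike ratios. Whether neighbours were less alike than other members was not tested. Cht1 and Cht3 lie next to each other with no gene between them. Cht1 averaged 1.05 in Apo, whereas Cht3 averaged 0.0281 ± 0.0968, and on every array of both genotypes Cht1 was the higher. The genes chia4a and Cht4 are separated by 2 genes, and on every array chia4a was the lower, with Apo means of -0.131 and 0.166 and IR64 means of -0.735 and -0.187. Both had Apo arrays above IR64 arrays. Cht2, Cht9 and Cht7 follow each other with no gene between them, and Cht2 was above Cht7 on 5 of 6 arrays, all but IR64 replicate 3. Probe sequences were not used here, so hybridisation of 1 gene's RNA to a relative's probe was not tested.

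The named genes outside the family whose 6 values were most like those of chia4a were ranked by the root mean square difference of log10 ratios over the 6 arrays. The nearest was Smt1-1, a sterol methyltransferase of membrane sterol synthesis, at 0.140. It was followed by DREB1B at 0.162, MADS14, a flowering factor, at 0.169, DREB1G at 0.172 and DREB1A at 0.173. The DREB1 proteins are transcription factors known for cold and drought responses. The nearest chitinase was Cht11, at 0.286.

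DREB1B read -0.0167, -0.0139 and 0.0405 in Apo and -0.806, -0.848 and -0.888 in IR64, so its genotypes were farther apart than those of chia4a and IR64 replicate 1 did not stand out. Smt1-1 read -0.0716, -0.152 and -0.133 in Apo and -0.370, -0.665 and -0.596 in IR64. As for chia4a, IR64 replicate 1 was the least negative of its group. MADS14 was listed at exactly 0 on 2 of its 3 Apo arrays, with an Apo mean of 0.0132, so its difference rests partly on zeros of unknown meaning. The Apo minus IR64 difference was 0.851 for DREB1B, 0.615 for MADS14, 0.602 for DREB1A, 0.501 for DREB1G and 0.425 for Smt1-1. These genes were picked for values near those of chia4a, which differ between the genotypes, so their differences are a description and their p-values are not given.

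**Figure D4:**
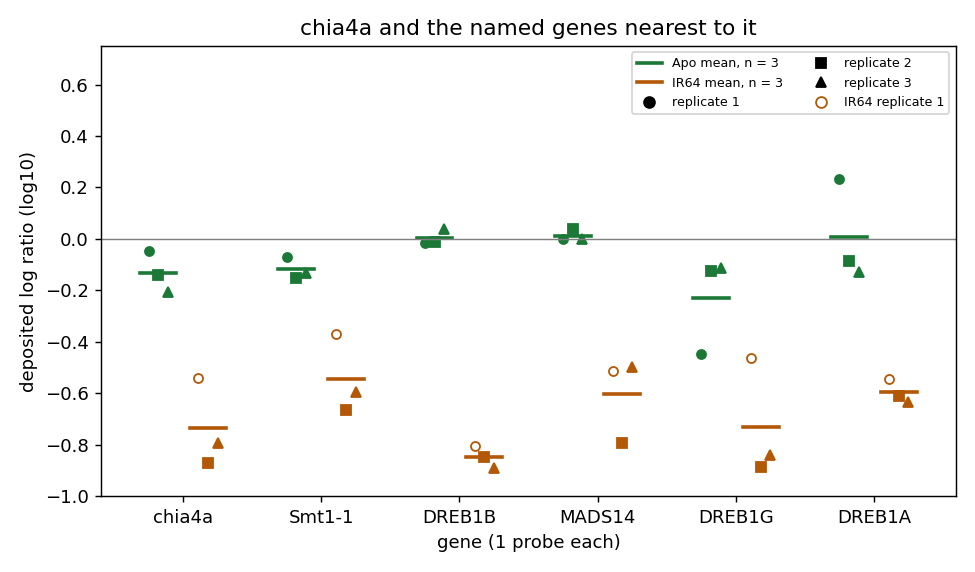
Deposited log10 ratio (vertical axis) on each array for chia4a and the 5 named genes nearest to it, with Apo in green, IR64 in orange and a bar at each mean of 3 arrays. In 5 of the 6 genes all IR64 arrays lie clearly below all Apo arrays, and for DREB1G the lowest Apo array comes close to the highest IR64 array. The 5 genes were picked for values near those of chia4a on these arrays, so this separation follows from the choice.

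Other genes with a chitinase name showed no common direction. Rcb4 (LOC4348631), annotated as a chitinase, read -0.579, -0.669 and -0.570 in Apo and -0.539, -0.491 and -0.415 in IR64. It was negative on all arrays and passed in both genotypes, with means of -0.606 ± 0.0548 (limma adjusted p = 5.49e-05) and -0.482 ± 0.0624 (limma adjusted p = 0.000180). LOC4351188, whose only name is chitinase, was positive at 0.124 ± 0.0539 and 0.132 ± 0.0760 (limma adjusted p = 0.0389 and 0.0351), with the IR64 call lost when IR64 replicate 1 was left out (0.0895). Chib3H-a, which is also listed as the xylanase inhibitor RIXI, was negative in Apo at -0.306 ± 0.272 (limma adjusted p = 0.0369, and 0.0560 when IR64 replicate 1 was left out) and did not pass in IR64 at -0.217 ± 0.101 (limma adjusted p = 0.116). Chib3H-h was listed at 0 on 4 of 6 arrays and passed in neither. None of the 4 passed for the difference (limma adjusted p = 0.188 to 0.931), where only 2.02% of all tested probes passed.

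Of the chitin receptors, CERK1, the kinase through which rice senses chitin, read 0.161, 0.186 and 0.181 in Apo and 0.332, 0.0985 and 0.139 in IR64. It was positive on all arrays, with means of 0.176 ± 0.0131 and 0.190 ± 0.125 that passed (limma adjusted p = 0.0217 and 0.0194), though not in Apo without any 1 of its arrays (0.0762 to 0.0907) nor in IR64 without IR64 replicate 3 (0.0515) or in a fit of the IR64 arrays alone (0.0851). LYP4, a LysM protein that binds chitin and peptidoglycan, was negative at -0.198 ± 0.189 and -0.205 ± 0.0656 and did not pass (limma adjusted p = 0.0523 and 0.0526) except under the block (0.0216 and 0.0227).

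Regulators of defence, together with the PR-10 protein PBZ1, had 2 positive and 8 negative calls of 19 probes in Apo. There 50.1% of all tested probes were called, 24.5% positive and 25.6% negative. In IR64 they had no positive and 5 negative calls, where 43.0% were called, 22.7% positive and 20.2% negative. With IR64 replicate 1 left out there were 3 positive and 8 negative calls in Apo, against 28.4% and 29.1% of all tested probes. In IR64 there were then no positive and 7 negative calls, against 25.9% and 21.8%. Under the block there were 3 positive and 9 negative in Apo, against 26.6% and 28.7% of all tested probes. In IR64 there were 1 positive and 6 negative under the block, against 25.5% and 23.1%. Their median was -0.130 in Apo and -0.105 in IR64. WRKY76, a repressor of defence genes, stood at -0.809 ± 0.0853 and -0.449 ± 0.109 (limma adjusted p = 6.36e-05 and 0.000831). The MAP kinase LOC4339633, named both MAPK6 and MPK7, was negative on 2 probes at -0.589 and -0.597 in Apo and -0.318 and -0.327 in IR64. These are separate calls in the counts. LOC4340170, also named MAPK6, stood at 0.0666 and -0.00734 and passed in neither over all 6 arrays. The MAP kinase BIMK1 had the highest Apo mean of the list, 0.635 ± 0.0307 (limma adjusted p = 0.00287). Its IR64 mean of 0.219 ± 0.316 did not pass (limma adjusted p = 0.138). NH2, of the NPR1 family of salicylate coregulators, stood at -0.251 ± 0.0458 and -0.356 ± 0.0981 (limma adjusted p = 0.00347 and 0.00106).

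NH3, of the same family, was the only one of the 19 to pass for the difference over all 6 arrays, where 2.02% of all tested probes passed. Under the block 1 positive and 2 negative differences passed, and with IR64 replicate 1 left out 5 positive and 4 negative did, where 5.36% and 33.6% of all tested probes passed. It read 0.157, 0.0999 and 0.295 in Apo and -0.258, -0.414 and -0.378 in IR64, positive on every Apo array and negative on every IR64 array. Its difference was 0.534 (limma adjusted p = 0.0286), 0.580 without IR64 replicate 1 (limma adjusted p = 0.00589), and it did not pass without any other array (0.0973 to 0.164). WRKY76 and the MAP kinase LOC4339633 did not pass for the difference (limma adjusted p = 0.0616, and 0.0741 and 0.0714 on its probes). Both did with IR64 replicate 1 left out (limma adjusted p = 0.0287 for WRKY76, 0.00850 and 0.00819 for LOC4339633). LOC4339633 also passed under the block on both probes (limma adjusted p = 0.0435 on each).

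Enzymes of phytoalexins and lignin precursors had 3 negative and no positive calls of 6 probes in Apo and 2 negative calls in IR64. Of all tested probes 50.1% and 43.0% were called, 25.6% and 20.2% negative. With IR64 replicate 1 left out there were 4 negative calls in Apo, against 29.1% of all tested probes. In IR64 there were then 1 positive and 2 negative, against 25.9% and 21.8%. Under the block there were 3 negative in Apo, against 28.7%. In IR64 there were 1 positive and 3 negative under the block, against 25.5% and 23.1%. CPS2, a diterpene phytoalexin enzyme, stood at -0.932 ± 0.108 and -0.679 ± 0.0456, and the related KSL10 at -0.316 ± 0.204 in Apo. In IR64 KSL10 did not pass (limma adjusted p = 0.0849), but did under the block (0.0456). In IR64 CPS4 was called at -0.160 ± 0.101, whereas CCR1 stood at 0.109 ± 0.0940 and did not pass. For the difference CPS2 (limma adjusted p = 0.0868) and CPS4 (0.183) did not pass over all 6 arrays. With IR64 replicate 1 left out 1 positive and 2 negative differences passed, against 13.9% and 19.7% of all tested probes. CPS4 was among them at 0.224 (limma adjusted p = 0.0451). The only call for the difference over all 6 arrays was that of PAL06 (limma adjusted p = 0.0318), where 2.02% of all tested probes passed. PAL06, which starts the phenylpropanoid pathway, stood at -0.856 ± 0.315 in Apo and 0.283 ± 0.129 in IR64. Its call was lost without any array other than IR64 replicate 1 (limma adjusted p = 0.0642 to 0.172). Its IR64 mean did not pass (limma adjusted p = 0.0850) except under the block (0.0199), with the arrays scaled (0.0440), with array weights (0.00882), in a fit of the IR64 arrays alone (0.0398) and without Apo replicate 1 (0.0132).

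Markers of other organs and cells gave calls as well, where 24.5% of all tested probes were called positive and 25.6% negative in Apo, and 22.7% and 20.2% in IR64. Root markers had 2 positive and 4 negative calls of 10 probes in Apo and 6 negative calls in IR64. Without IR64 replicate 1 they had 7 negative calls in IR64, where 21.8% of all tested probes were called negative. The mean of the root markers per array ran from -0.264 to -0.214 in Apo and from -0.314 to -0.266 in IR64. Over all 6 arrays only NAS1 of these passed for the difference (limma adjusted p = 0.0307), where 2.02% of all tested probes passed. NAS1 stood at 0.127 ± 0.0343 in Apo and -0.254 ± 0.0714 in IR64. Its call was lost without any array other than IR64 replicate 1 (limma adjusted p = 0.110 to 0.164). Among root markers 3 positive and 2 negative differences passed with IR64 replicate 1 left out, where 13.9% of all tested probes passed with Apo higher and 19.7% with Apo lower. Vascular and secondary wall markers had 2 positive and 1 negative call of 5 in Apo and 2 positive in IR64, with means per array of -0.0423 to 0.0490 and 0.117 to 0.270. In Apo they had 1 positive and 1 negative call without IR64 replicate 1, against 28.4% and 29.1% of all tested probes. The name BC1 matched LOC4333114 and also LOC4347540, which is listed as bHLH081 too. Whether LOC4347540 marks walls was not tested, but its positive calls are part of these counts and means. Its mean was 0.307 ± 0.115 for Apo (limma adjusted p = 0.00505) and 0.273 ± 0.113 for IR64 (limma adjusted p = 0.0101). None of the 5 passed for the difference over all 6 arrays, and 2 negative did with IR64 replicate 1 left out. CESA4 passed under the block (limma adjusted p = 0.0414), where 3.61% of all tested probes passed with Apo lower. Anther and seed markers had 1 positive call of 6 in each genotype, with means per array of 0.0302 to 0.132 and -0.00143 to 0.125. Under the block they had 2 positive and 1 negative call in Apo, against 26.6% and 28.7% of all tested probes. None of them passed for the difference in any of these fits. The part of these markers in the chitinase ratios was not tested, and their absence could not be read from ratios.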

How the data were processed

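Leaf RNA was measured on 6 2-colour Agilent rice arrays, 3 for each genotype. The deposited values are log10 ratios of the channels, made by the authors; per the submitters' processing notes the software was Agilent Feature Extraction 8.1. The base, the numerator, dye normalization, background correction and centring are recorded in no label or header used here; the base is taken from what that software writes. Per the labels Cy5 marked watered and Cy3 stressed leaves on every array, so a dye effect stays in each genotype's ratios. Signal intensities were not used, so distance from background is unknown; precision is limited by how many arrays there are.

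Of 22575 spots, 17839 had 1 gene and 21 several; 133 annotated spots at 0 on all arrays were left out. Names come from the RefSeq gene table of ASM3414082v1, where all 17839 gene identifiers were found. All 10 chitinase probes passed this filter. The names Cht1 and Cht2 are synonyms of another member too (LOC4338719 and LOC4349267), which are called Cht9 and Cht8 here.

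Ratios were fitted as deposited with limma 3.58.1 in R 4.3.3, with 1 mean per genotype over all 6 arrays and eBayes. P-values were adjusted by Benjamini-Hochberg over all 17727 probes, with a threshold of 0.05. The fit was also run on simulated data with independent noise on each array. That run could not test the effect of deviations shared by same-numbered arrays or of IR64 replicate 1. Deviations from the genotype means of same-numbered Apo and IR64 arrays correlated at 0.322, 0.261 and 0.340 across probes, so the numbers were taken to pair arrays. The main fit and its intervals leave that pairing out. Values under a block for the replicate number are given where they change a call of a named gene or move a count of calls by over 1.5 times. Tables were made in Python 3.11.15.

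The members and lists were chosen with earlier results of these data known. All members are named. Of the other lists the 3 probes with the smallest p in each comparison are named, for markers only the counts and a call of the difference. BIMK1, LOC4340170 and LOC4347540 are given besides, for their part in the counts or for a shared name. The pattern first written for beta-1,3-glucanases matched only other enzymes and was dropped, the actin RAc1 and GL2/PT2 were taken out of other lists, PBZ1 was merged with the defence regulators, and the list of other genes with a chitinase name was redrawn, all by name and before the values of those lists were viewed.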

Additional observations from a re-analysis of the deposited data

Results flagged for a closer look

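The difference between the genotypes was past the threshold for 7 of the genes described. Most of them were named through this comparison or for values near those of chia4a. Their number can therefore not be set against the 2.02% of all tested probes that passed. NH3, PAL06 and NAS1 had the smallest p of their lists in this comparison and were named for that. The calls of chia4a, NH3, PAL06 and NAS1 were lost without any array other than IR64 replicate 1. For the chitinase chia4a Apo minus IR64 was 0.604, with every IR64 array below every Apo array. Of the genes nearest to it DREB1B had a difference of 0.851, MADS14, listed at 0 on 2 Apo arrays, of 0.615 and DREB1A of 0.602. Smt1-1 and DREB1G did not pass over all 6 arrays. Smt1-1 did under the block, and both did with IR64 replicate 1 left out, where 33.6% of all tested probes passed. All 5 genes were picked for values like those of chia4a, so their differences are no independent evidence. Like chia4a, DREB1A did not pass with spots at 0 on all arrays kept or with all spots tested. NH3, of the NPR1 family, had 0.534, with opposite signs in the genotypes on all 6 arrays. PAL06 had -1.14 and the root marker NAS1 0.380, also with opposite signs on all 6 arrays. Groups of 3 arrays are too small for the check on single outlying samples, so none was made.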

How the results depend on the processing

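In Apo 3 chitinases passed. The count was 5 under a replicate block and 6 with array weights, where 69.0% of all tested probes passed against 50.1%, and ran from 1 to 5 with each array left out in turn. In IR64 4 passed. The count was 2 in a fit of the IR64 arrays alone, where 30.1% of all tested probes passed against 43.0%, and ran from 2 to 5 with each array left out. For the difference 1 passed. The count was 0 with spots at 0 on all arrays kept (chia4a at an adjusted p = 0.0525), 0 with all spots tested (0.0529) and 5 with array weights (48.3% of all tested probes), and ran from 0 to 4 with each array left out. More probes were tested in the first pair of these, and the cause was not tested for any of them. Over all tested probes the difference was called for 358, for 951 with the block, 235 with all spots tested, 8559 with array weights and 5959 without IR64 replicate 1. It was called for 0 to 12 without any other array, and IR64 for 7619 against 5076 without IR64 replicate 2. Median centring, scaling of the arrays, robust moderation and taking values at exactly 0 as missing, the last chosen after seeing the data, left the 3 chitinase counts as they were. Of 440 values of single chitinases under the 15 alternatives, 404 stayed on their side of the threshold, 18 lost a call and 18 gained one, and no called value changed sign. The replicate block changed no chitinase call other than those given above for Cht8, Cht6 and Cht11. The Apo and IR64 calls of Cht1 and the IR64 call of chia4a held in all 15. Depth is unknown for ratios, and weak spots could not be told from strong ones.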
